A study of Mus musculus with 63 samples.

Results

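Among the genes of small intestinal tumours built from more than 1 clone, some had levels that rose and fell together in both clones over tumours, and others did not. Levels that go together in this way need not be equal in the clones of a tumour. For each of 16428 genes the major clone was correlated with the minor clone over 20 tumours, after log2(value + 1) had been centred within clone class and mouse. 1559 genes with a Pearson r of at least 0.6 were taken as tumour-wide (9.49% of all), and 1846 genes with an r of at most 0.1 and an SD of at least 0.5 log2 units over the 40 clones as clone-varying (11.2%). The genes were chosen by these values of r and SD, which describe them, and no test was made on them.

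All samples came from 2 Villin-creERT2; Apc fl/+; Rosa fl/Confetti mice on a C57BL/6 background, 1 female and 1 male, so that mouse and sex cannot be told apart. Both received 4 mg tamoxifen at an age of at least 8 weeks, which removes 1 *Apc* allele in the intestinal epithelium, where Villin drives Cre, and recombines the Confetti allele to 1 of 4 fluorescent proteins. The mutagen ENU followed after 10 days at 200 mg per kg. Heterotypic tumours, whose glands were of several Confetti colours or of 1 colour beside unlabelled glands, were cut under a fluorescence microscope into a larger (major) and a smaller (minor) clone, and each clone gave 1 bulk RNA library, 40 in all (10 tumours in each mouse). The other 23 of the 63 libraries were undivided tumours, 10 of the female and 13 of the male mouse. Each library has a label for the segment of small intestine, and 15 clones were labelled SI10, 21 SI20 and 4 SI30. What these labels stand for is not given in the sources used here, and they are used as they are. The SI30 clones are those of female tumours 29 and 30, undivided tumours are SI10 (12) or SI20 (11), and the clones of female tumour 22 carry different labels (major SI20, minor SI10). The libraries are separate tumours or clones, but there is only 1 mouse of each sex.

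Loss of both *Apc* alleles leaves WNT signalling on and turns an intestinal crypt into an adenoma. The small intestine changes along its length, with iron uptake and the homeobox factor *Pdx1* at the duodenal end, and this identity is kept in the stem cells of each region. Its epithelium holds absorptive enterocytes, mucus-making goblet cells, Paneth, tuft and hormone-making enteroendocrine cells. A tumour also has a setting that both clones meet, such as its position, its stroma and its immune cells. In bulk RNA, fewer cells of a type and less RNA per cell cannot be told apart.

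The values are normalised counts, and those of a clone summed to between 26140227 and 37617414 (median 30637015). The epithelial markers *Epcam*, *Cdh1*, *Krt8*, *Krt18*, *Krt19*, *Vil1* and *Cdx2* were present in every clone (*Epcam* 31344 to 63025), as were the *Apc*-loss targets *Axin2*, *Notum* and *Nkd1* (*Axin2* 1635 to 8013). A reporter at least 3 times the next was found in 29 of 40 clones (11 major, 18 minor), and in the partner clone that reporter was at 2.49 to 32.9% of its level (median 12.5%). What part of r comes from tissue of the partner in a dissected piece was not tested. In the 9 tumours with such a reporter in both clones, the 2 reporters differed. In female tumours 19, 22 and 24 both clones had the same highest reporter, which in the major clone was less than 3 times the next. Both clones of male tumour 19 stood apart, with a root mean square distance from their class of 1.05 log2 units against at most 0.83 in any other clone. Without it 903 genes were tumour-wide, 755 of them shared with the 1559, and 2032 were clone-varying, 1606 of them shared with the 1846.

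Most genes leaned towards likeness between the clones of a tumour. The median r was 0.25 (quartiles 0.06 and 0.45, range -0.63 to 0.94), and 81.3% of values were above 0. Over genes, the clones of 1 tumour correlated at a median of 0.21, from -0.10 in male tumour 28 to 0.56 in male tumour 19, against -0.02 for clones of different tumours. Only 7 major clones had the minor clone of their own tumour as the closest of the 20, and 8 minor clones their own major clone. The gap between the clones of a tumour follows from the r and SD that chose the genes. Its median was 0.25 log2 units for tumour-wide, 0.76 for clone-varying and 0.34 for all genes, and among genes with an SD of at least 0.5, the minimum for a clone-varying gene, it was 0.54 for tumour-wide genes and 0.69 for all. In the undivided tumours, which the rule did not use, the median SD within a mouse was 0.94 for clone-varying genes, below the 1.09 of tumour-wide genes with an SD of at least 0.5 in the clones and the 0.98 of all genes with that SD (0.44 and 0.47 for tumour-wide and all genes without this minimum).

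**Figure D1:**
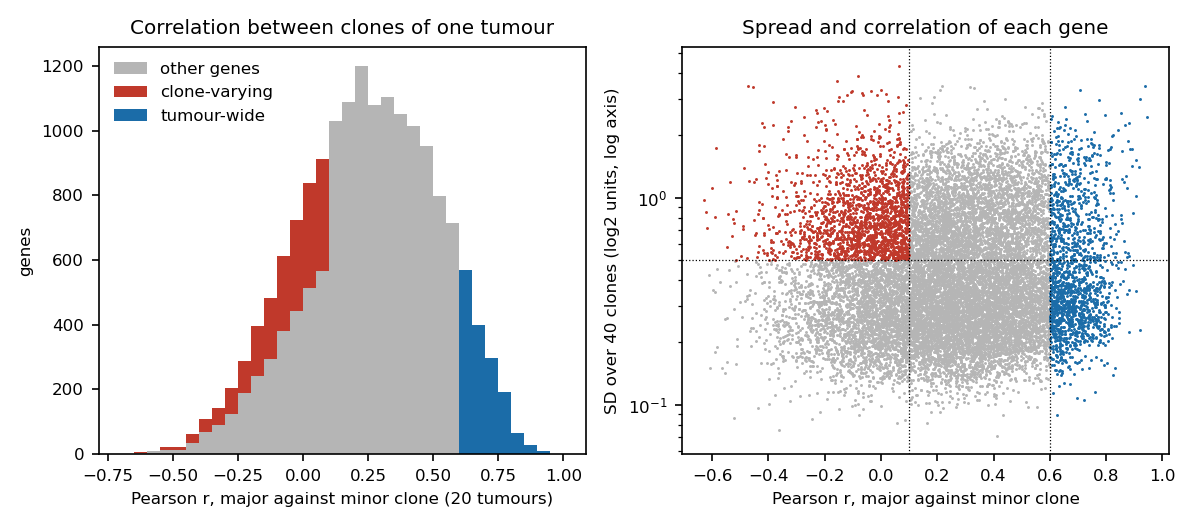
Left, number of genes by Pearson r between major and minor clones of 20 tumours. Right, r against the SD over 40 clones (log2 units, log axis), 1 point per gene, with dotted lines at r of 0.1 and 0.6 and at an SD of 0.5. Tumour-wide genes (blue) reach an r of 0.94, clone-varying genes (red) fill the upper left, and most genes (grey) are neither.

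Clone-varying genes were low and less often protein-coding, and so, to a smaller degree, were all genes that met the SD minimum of their rule. Clone-varying genes had a median mean level of 31.6 normalised counts, beside 53.8 for all 6263 genes with an SD of at least 0.5 and 436.5 for all genes. Tumour-wide genes had 1136, or 277.4 for the 573 with that SD. Among genes with that SD, a mean below 50 was found for 61.5% of clone-varying genes, 23.04% of tumour-wide genes and 48.2% of all. Protein-coding genes made up 62.9% of clone-varying, 90.6% of such tumour-wide and 74.3% of all such genes. Pseudogenes were 17.4, 1.75 and 10.6%, and long non-coding RNAs 15.4, 6.11 and 10.7%. At least 1 clone was at 0 in 20.4% of clone-varying, 16.1% of such tumour-wide and 18.1% of all such genes, values that lie close together. Counting noise is larger at low levels, and its part in the clone-varying class was not tested. A mean of at least 100 was found for 491 clone-varying and 1348 tumour-wide genes. Of the 6263 genes, 9.15% were tumour-wide and 29.5% clone-varying.

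The thresholds divide a continuous scale. Just inside the tumour-wide class lay *Ndufc1*, *Hpd* and *Cenpa*, and just outside it *Slc39a14*, *Myo5b* and *Kif12*. *Il18*, *Sgk1* and *P2rx2* were just inside the clone-varying class and *Pdgfrl*, *Amot* and *Tent5b* just outside it. With each tumour left out in turn, 548 tumour-wide and 813 clone-varying genes met their rule every time.

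Each mouse can serve as a sample that the other mouse did not choose. Of the genes whose mean over all 40 clones reached 10, the 1885 with an r of at least 0.6 in the 10 female tumours had a median r of 0.43 in the male tumours, beside 0.29 for all genes. Chosen in the male tumours, 3345 genes had a median r of 0.32 in the female tumours, beside 0.23 for all. Clone-varying genes chosen in one mouse had a median r of 0.20 (female to male) and 0.16 (male to female) in the other. In either direction the chosen tumour-wide genes lay above all genes and the chosen clone-varying genes below them.

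The genes with the highest r include genes of regional identity, though the lists of such genes were mixed. All 41 lists, here and below, were written with earlier results of these data known, so their shares are a description with no test. Of 19 genes of the proximal small intestine 7 were tumour-wide and 1 clone-varying (median r 0.38, 0.50 for the mean of the list), and of 15 distal genes 3 were tumour-wide and 4 clone-varying (median r 0.33, 0.52 for the mean). Of all genes 9.49% were tumour-wide and 11.2% clone-varying. All 15 distal genes had an SD of at least 0.5, where 29.5% of all genes were clone-varying. When segment was centred out as well and female tumour 22 left out, 4 proximal and 3 distal genes were tumour-wide, and 2 of each list clone-varying. In that setting 1281 of all genes were tumour-wide and 1944 clone-varying. The r of the mean was then 0.38 for the proximal and 0.22 for the distal list. *Osr2*, an odd-skipped zinc finger factor (GRCm39 chr15:35296196-35303673), had the highest r of all (0.94). Its level lay at 1.95 to 713 (median 296) in major clones, 4.44 to 929 (median 204) in minor clones and 0 to 769 (median 52.5) in undivided tumours. In clones labelled SI10 it lay at 1.95 to 113 (median 15.7), in SI20 clones at 59.1 to 929 (median 523) and in SI30 clones at 308 to 507 (median 341). SI10 and SI20 clones overlapped, at the level of female tumour 22 (59.1 in its SI20 major clone and 31.8 in its SI10 minor clone) and of female tumour 23 (68.7 and 113). *Akp3*, an alkaline phosphatase of the upper small intestine (chr1:87052695-87055634), showed the opposite order, with 2567 to 85847 (median 30701) in SI10, 47.7 to 11013 (median 576) in SI20 and 28.2 to 158 (median 100.5) in SI30 clones. Its r was 0.94, although the clones of 10 tumours were more than 1 log2 unit apart.

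Other genes with the highest r were *Tmprss15*, the enteropeptidase that activates trypsin (0.92), *Sult6b2*, a sulfotransferase (0.92), *Papss2*, which makes the sulfate donor (0.90), *Slc34a2*, a phosphate transporter (0.90), *Tnfrsf23*, a decoy receptor (0.90), and *Reg1*, a regenerating lectin (0.89). *Pmp22* (0.89), the water channel *Aqp5* (0.88), the oxidase of protein folding *Ero1a* (0.88), the monocarboxylate transporter *Slc5a8* (0.88), the sphingomyelinase *Smpd3* (0.88) and the Hippo kinase *Lats2* (0.87) completed the 14. *Tmprss15* ranged from 0 to 2336 (median 286) in major clones and from 0 to 2036 (median 163) in minor clones, against 2415 to 13607 (median 6358) and 2196 to 9552 (median 6063) for *Ero1a*. The 14 thus hold genes with wide and with narrow ranges.

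*Cybrd1* and *Slc11a2* are tumour-wide genes of the proximal list. *Cybrd1*, the ferric reductase of the brush border, had an r of 0.87 and *Slc11a2*, the iron importer, an r of 0.82. *Cybrd1* lay at 992 to 123555 (median 30128) in SI10, 821 to 20801 (median 5125) in SI20 and 269 to 951 (median 291) in SI30 clones. The clones of 1 tumour could still differ. In female tumour 20 the major clone was at 34971 and the minor clone at 7254, and in 14 of 20 tumours the gap was over 1 log2 unit. *Pdx1*, the duodenal homeobox factor, had an r of 0.86, with 463 to 1584 (median 764) in SI10, 41.7 to 662 (median 137) in SI20 and 14.5 to 70.0 (median 32.0) in SI30 clones. With the segment centred out in this way, its r was 0.12, against 0.73 for *Osr2*, 0.81 for *Akp3* and 0.64 for *Cybrd1*. Of the 1559 tumour-wide genes, 982 (63.0%) kept an r of at least 0.6 in that setting.

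**Figure D2:**
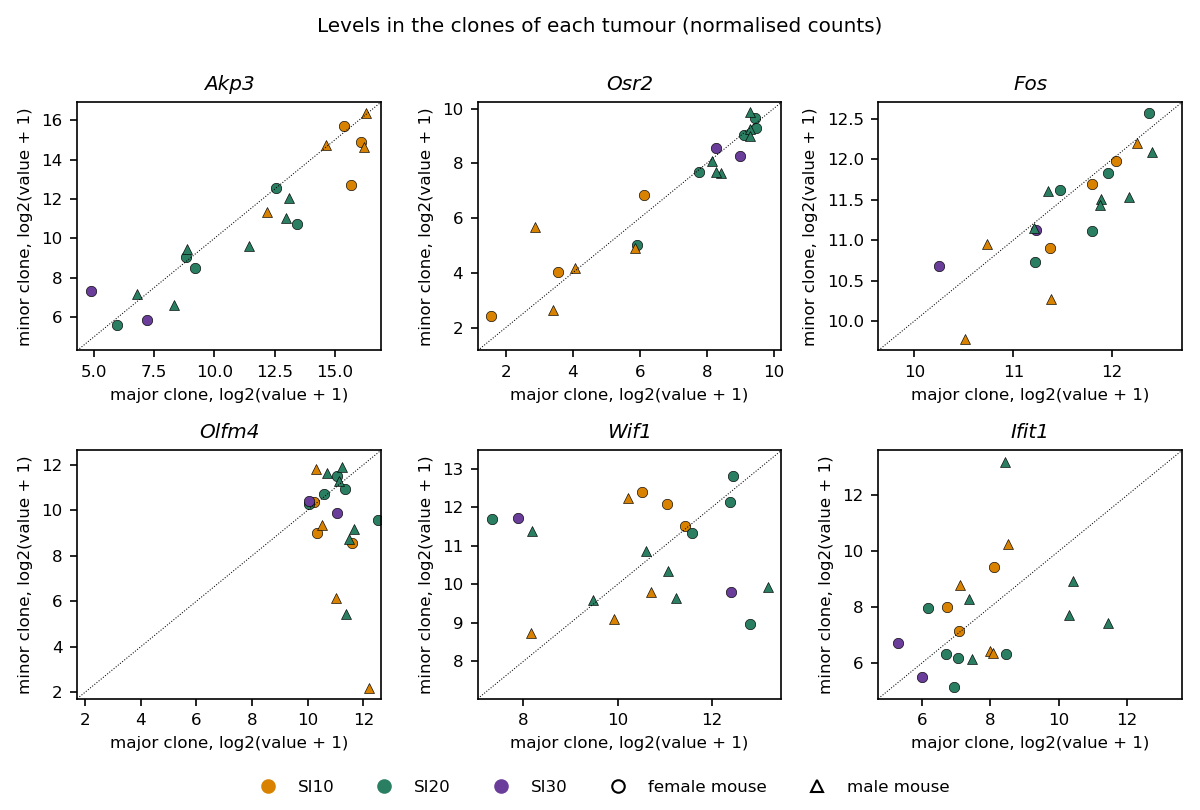
Normalised counts as log2(value + 1) in the major (x axis) and minor clone (y axis) of each of 20 tumours, coloured by the segment label of the major clone, with circles for the female and triangles for the male mouse. Levels in both clones rise together for *Akp3* (r 0.94), *Osr2* (0.94) and *Fos* (0.83), though not always along the dotted line of equal levels. Those of *Olfm4* (-0.43), *Wif1* (-0.17) and *Ifit1* (0.08) do not rise together.

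The undivided tumours, which played no part in choosing the genes, allow a test of segment. SI20 was compared with SI10 by limma over 16511 genes with mouse as a covariate, and 28 genes had a Benjamini-Hochberg adjusted p below 0.05 (0.17%). Of 1540 tumour-wide genes tested, 19 were called (1.23%), 18 of them lower in SI20, where 0.151% of all genes were, and 1 of them higher, where 0.0182% were. Of 1750 clone-varying genes limma called 0, and of 12917 other genes 7. Its unadjusted p was below 0.05 for 145 tumour-wide (9.42%), 135 clone-varying (7.71%) and 945 other genes (7.32%). Among genes with an SD of at least 0.5, the calls were 19 of 554 tumour-wide, 0 of 1750 clone-varying and 6 of 3740 other genes. A mean of at least 100 left 16 of 1348 tumour-wide and 0 of 491 clone-varying genes. With libraries scaled to the same sum, the median of all genes shifted from 0.00 to 0.11, and 1 tumour-wide gene was higher and 18 lower.

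The single tumour-wide gene higher in SI20 was *Osr2* (log2 difference 4.67, SE 0.90, adjusted p = 0.0278). Undivided SI10 tumours lay at 0 to 183 (median 3.72) and SI20 tumours at 2.66 to 769 (median 280.3), so that the groups overlapped. *Akp3* was lower in SI20 (log2 difference -5.34, SE 0.90, adjusted p = 0.0140), with 1023 to 415031 (median 102352) in SI10 and 102 to 48714 (median 536) in SI20 tumours. *Pdx1* was lower as well (log2 difference -3.05, SE 0.61, adjusted p = 0.0313), *Sult6b2* (log2 difference -1.71, adjusted p = 0.0278), *Papss2* (log2 difference -1.28, adjusted p = 0.0278) and *Reg1* (log2 difference -2.34, adjusted p = 0.0313). All these differences are of log2(value + 1), where the added 1 shrinks the change of genes with low values.

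Other genes lower in SI20 include *Cybrd1* and *Slc11a2*, while *Slc40a1*, *Fth1*, *Ncoa4*, *Scarb1* and *Slc16a9* are named here after their values were seen. None of the 41 lists is one of iron genes, so no count of such genes is given. *Cybrd1* was lower (log2 difference -3.63, SE 0.60, adjusted p = 0.0140), with 8486 to 203187 (median 71411) in SI10 and 540.4 to 36209 (median 3014) in SI20 tumours. The importer *Slc11a2* was lower (-2.76, adjusted p = 0.0221) and so was *Slc40a1*, the exporter ferroportin (-2.96, adjusted p = 0.0214). *Fth1*, the ferritin heavy chain that stores iron, was lower (-1.37, adjusted p = 0.0140), as was *Ncoa4*, which carries ferritin to lysosomes (log2 difference -1.29, adjusted p = 0.0421). Between clones of a tumour the r of *Slc40a1* was 0.81, of *Fth1* 0.70 and of *Ncoa4* 0.78. The lipoprotein receptor *Scarb1* was also lower (log2 difference -1.33, adjusted p = 0.0140), and so was the carnitine transporter *Slc16a9* (-3.81, adjusted p = 0.0140).

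The undivided female tumour 6, labelled SI20, stood apart from the other SI20 tumours towards the values of SI10. It had 2.66 for *Osr2*, where the other 10 lay at 93.7 to 769, 36209 for *Cybrd1*, 48714 for *Akp3* and 1084 for *Pdx1*, the last 3 being the highest values of any SI20 tumour. Without it limma called 53 genes, 25 of them tumour-wide (5 higher, 20 lower) and 1 clone-varying, and the log2 difference of *Osr2* was 5.22 and of *Pdx1* -3.36. It was kept under its label elsewhere. Undivided female tumour 4, labelled SI10, leaned towards the values of SI20. It had the highest *Osr2* (183) and the lowest *Akp3* (1023), *Pdx1* (336) and *Cybrd1* (8486) of any SI10 tumour. Without female tumour 4 limma called 29 genes, 19 of them tumour-wide (1 higher, 18 lower).

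The number of segment calls depended on single libraries and on the mouse. In the female mouse alone (5 against 5) limma called 0 genes (509 with an unadjusted p below 0.05), and in the male mouse alone (7 against 6) 46, 24 of them tumour-wide and 2 clone-varying. Leaving out any 1 of 12 undivided tumours (female 2, 5 and 10 and male 1, 2, 5, 6, 7, 8, 9, 17 and 18) left 5 to 11 tumour-wide calls, with 5 without female tumour 10, male tumour 8 or male tumour 9. *Cybrd1*, *Akp3*, *Fth1*, *Scarb1* and *Slc16a9* were called in all 23 fits with 1 tumour left out, with a highest adjusted p of 0.04005. *Slc11a2* and *Slc40a1* were called in 20, all but those without female tumour 10, male tumour 8 or male tumour 9, *Sult6b2* in 14, *Papss2* in 13, *Osr2* in 12, *Pdx1* in 10, *Reg1* in 9 and *Ncoa4* in 7. The direction of these 13 genes was the same in all 23 fits. An interaction of segment with mouse was called in 0 of 16511 genes (870 with an unadjusted p below 0.05).

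**Figure D3:**
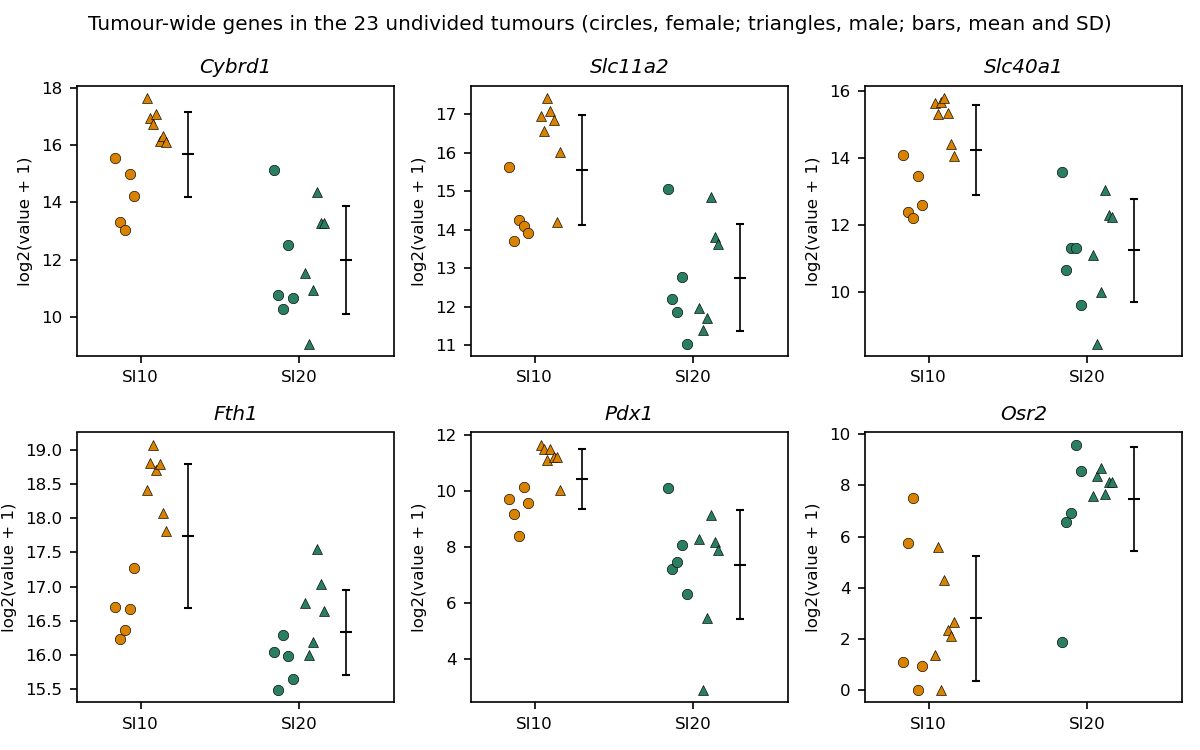
Normalised counts as log2(value + 1) of 6 tumour-wide genes in 12 SI10 and 11 SI20 undivided tumours. Each point is 1 tumour (circles, female; triangles, male), and the bars give mean and SD. *Cybrd1*, *Slc11a2*, *Slc40a1*, *Fth1* and *Pdx1* lie lower in SI20 and *Osr2* higher, with overlap between the segments.

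Genes of goblet cells and of mucus were more often tumour-wide than the 9.49% of all genes, and fewer of them were without male tumour 19, where 903 of all 16428 genes were. Of 21 goblet cell genes 10 were tumour-wide (6 with the segment centred out and female tumour 22 left out) and 1 clone-varying, and the mean of the list had an r of 0.75 between clones, which was 0.44 without male tumour 19, when 4 genes were tumour-wide. It was 0.88 in the male and 0.27 in the female mouse. *Spink4*, a trypsin inhibitor of goblet cells (r 0.86), lay at 3278 to 20399.7 (median 11301) in major and 775 to 17904 (median 8199) in minor clones. In male tumour 19 it was lowest in both, at 3278 and 775. *Spdef*, the factor that drives goblet maturation, had an r of 0.77 and *Creb3l1*, a factor of the secretory pathway, of 0.75. Of 34 genes of mucin glycosylation and of gastric type, 12 were tumour-wide (5 without male tumour 19, 7 with the segment centred out) and 2 clone-varying (4 with the segment centred out), and the r of their mean was 0.77 in the female and 0.79 in the male mouse, with *Galnt6*, which starts mucin O-glycans, at 0.82 and *Vsig1*, a gastric junction protein, at 0.77. *Aqp5* was at 0 and 3.30 in the clones of male tumour 19 and at 50.3 to 3619 in all others.

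The Reg family with antimicrobial genes and the genes of neutrophils, which are immune cells, also had larger shares of tumour-wide genes than the 9.49% of all. Of 16 Reg family and antimicrobial genes 9 were tumour-wide (6 without male tumour 19), and of 18 neutrophil genes 5 (4 without it). The r of the mean was 0.47 in the female and 0.65 in the male mouse for the first list and 0.20 and 0.78 for neutrophils. *Duox2*, the oxidase that makes hydrogen peroxide at the surface, had an r of 0.86 over both mice, 0.94 in the male and 0.07 in the female mouse. It lay at 370.4 to 11303 (median 5538) in major clones, where male tumour 19 (370.4) and male tumour 23 (955) were lowest, and at 69.4 to 13959.9 (median 4948) in minor clones, where male tumour 19 (69.4) and male tumour 23 (1269) were lowest again. *Lcn2*, which binds bacterial siderophores, had an r of 0.68, *S100a9*, a subunit of calprotectin, of 0.65 and *Mmp8*, the neutrophil collagenase, of 0.81. *Lcn2*, *S100a8* and *S100a9* stand in both lists. Neutrophil and goblet cell means correlated at 0.62 over the 40 clones, and what part either has in the other was not tested.

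YAP targets and immediate early genes also held larger shares of tumour-wide genes than the 9.49% of all genes. Of 27 YAP targets 8 were tumour-wide and 1 clone-varying, which were 5 and 2 with libraries scaled to the same sum, and the mean of the list had an r of 0.80 (0.77 in the female and 0.83 in the male mouse, 0.74 without male tumour 19, 0.63 scaled to the same sum). *Lats2* (r 0.87), which restrains YAP, lay at 112 to 523 (median 317) in major and 106 to 433 (median 257) in minor clones. Of 29 immediate early genes 9 were tumour-wide (5 without male tumour 19, and 5 with the segment centred out) and 1 clone-varying (3 without male tumour 19), with an r of the mean of 0.52 in the female and 0.69 in the male mouse. *Dusp1*, the phosphatase that ends MAPK signals, had an r of 0.85, with 335 to 2110.2 (median 857) in major and 221 to 2362 (median 778) in minor clones. Its clones were both high in some tumours (1786 and 2362 in male tumour 20, 1546 and 1821 in male tumour 31) and both low in others (353 and 221 in male tumour 19, 335 and 367 in female tumour 29). *Fos* (0.83) and *Fosl2* (0.83), parts of the AP-1 factor, were close to it. Of 32 fetal-like genes 8 were tumour-wide (5 without male tumour 19, with the segment centred out or scaled to the same sum), with an r of the mean of 0.40 and 0.75, among them *Sprr1a* at 0.76.

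The promoter of *Dusp1* (RefSeq, build GRCm38.p6, 300 bases from 250 before to 50 after the start) is shown because it holds a cAMP response element, TGACGTCA, in capitals. The same window of *Fos* and of *Fosl2* held none, and of the 9 tumour-wide immediate early genes *Dusp1* was the 1 with a match. It lies on the minus strand at chr17:26508423-26508722.
Dusp1: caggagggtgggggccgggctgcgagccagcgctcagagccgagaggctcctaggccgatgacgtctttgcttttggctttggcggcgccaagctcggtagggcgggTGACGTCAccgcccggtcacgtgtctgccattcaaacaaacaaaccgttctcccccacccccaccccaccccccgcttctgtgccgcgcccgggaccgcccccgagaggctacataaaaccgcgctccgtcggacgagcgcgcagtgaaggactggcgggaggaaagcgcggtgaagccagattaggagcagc
This motif, which reads the same on both strands, stood in 3 of 23 immediate early genes with a promoter in the table, in 3.30% of all genes, in 2.74% of tumour-wide and in 2.28% of clone-varying genes. A promoter was matched for 11625 of 16428 genes (70.8%), for 74.9% of tumour-wide and for 54.6% of clone-varying genes. A match of letters is a description and not a binding site. The AP-1 motif TGANTCA, searched on both strands, stood in 7.08% of all genes, 8.31% of tumour-wide and 10.2% of clone-varying genes.

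Cytosolic ribosomal proteins were more often tumour-wide than the 9.49% of all genes, with small ranges. Of 48 genes 33 were tumour-wide and 0 clone-varying, and 26 were tumour-wide without male tumour 19, 25 with libraries scaled to the same sum and 17 with the segment centred out as well and female tumour 22 left out. Their median r was 0.66 and the r of their mean 0.75 (0.88 in the female and 0.66 in the male mouse), with a median SD of 0.26, and 1 of the 48 met the SD minimum of the clone-varying class. *Rpl8*, with the highest r (0.79), lay at 24539 to 48167 (median 28393) in major and 24702 to 46770.3 (median 31972) in minor clones, and male tumour 19 held the highest value in both classes. Over the 40 clones the mean of the list correlated at 0.72 with *Rn18s*, a ribosomal RNA gene that polyadenylated libraries should hold little of, and at -0.70 with the goblet cell mean. The part of RNA composition in this list was not tested.

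Genes of the interferon response were more often clone-varying than all genes. Type I interferons and interferon gamma switch on many genes through STAT and IRF factors, a response that can be local. Of 36 interferon response genes 0 were tumour-wide and 19 (52.8%) clone-varying, beside 11.2% of all genes. The 19 are out of 34 with an SD of at least 0.5, where the share of all genes is 29.5%. The mean of the list had an r of 0.00 between clones. This r was 0.67 in the female and -0.20 in the male mouse, 0.26 without male tumour 29 and -0.17 without female tumour 20. *Ifit1*, which binds foreign RNA ends, had an r of 0.08 and lay at 38.2 to 2813 (median 169) in major and 33.9 to 9487 (median 156) in minor clones. The highest value was in the minor clone of male tumour 29, 9487, where the major clone was at 342. In male tumour 27 the order was reversed, with 2813 in the major and 169.9 in the minor clone, and in male tumour 31 with 1266 and 210.2. Either clone could thus hold the higher value, and the clones of 15 of 20 tumours were more than 1 log2 unit apart.

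*Ifit3* (r -0.02) and *Rsad2*, the antiviral viperin (r -0.08), had the largest SD of the clone-varying genes of the list, with *Ifit1*. In male tumour 29 *Ifit3* was at 104 in the major and 3463 in the minor clone, and *Rsad2* at 28.2 and 996. *Nlrc5*, which switches on class I antigen presentation, was also clone-varying (r -0.34), and of 21 MHC class I genes 0 were tumour-wide and 4 clone-varying, the latter out of 14 with an SD of at least 0.5, close to the 29.5% of all such genes (7 were clone-varying with the segment centred out). The mean of the MHC class I list had an r of 0.54 in the female and 0.03 in the male mouse. The interferon list is not uniform. *Iigp1* (r 0.57), *Gbp2* (0.53) and *Cxcl9* (0.46), which answer interferon gamma and had the highest r of the list, lay in neither class. The interferon mean correlated over the 40 clones at 0.71 with MHC class I, 0.44 with neutrophils, 0.32 with macrophages and 0.22 with T lymphocytes, and the part of immune cells in it was not tested.

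The promoters of these 3 genes (RefSeq, build GRCm38.p6) are given because they carry the interferon response element, here GAAA, any 2 bases and GAAA again, or TTTC, any 2 bases and TTTC where the element lies on the other strand, with each match in capitals and overlaps allowed. *Ifit1* lies at chr19:34640639-34640938 and *Ifit3* at chr19:34583279-34583578, both on the plus strand, and *Rsad2* at chr12:26456403-26456702 on the minus strand.
Ifit1: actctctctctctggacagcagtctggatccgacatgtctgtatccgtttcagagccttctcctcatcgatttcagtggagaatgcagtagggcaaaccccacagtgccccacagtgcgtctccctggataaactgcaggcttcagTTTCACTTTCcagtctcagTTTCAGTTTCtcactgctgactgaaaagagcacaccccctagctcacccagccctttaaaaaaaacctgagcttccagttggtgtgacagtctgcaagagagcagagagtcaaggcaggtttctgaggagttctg
Ifit3: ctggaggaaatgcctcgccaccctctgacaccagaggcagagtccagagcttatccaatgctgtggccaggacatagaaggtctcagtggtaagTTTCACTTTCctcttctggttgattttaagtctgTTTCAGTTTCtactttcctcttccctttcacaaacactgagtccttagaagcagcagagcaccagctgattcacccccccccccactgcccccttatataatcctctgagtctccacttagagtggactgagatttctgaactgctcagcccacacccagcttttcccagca
Rsad2: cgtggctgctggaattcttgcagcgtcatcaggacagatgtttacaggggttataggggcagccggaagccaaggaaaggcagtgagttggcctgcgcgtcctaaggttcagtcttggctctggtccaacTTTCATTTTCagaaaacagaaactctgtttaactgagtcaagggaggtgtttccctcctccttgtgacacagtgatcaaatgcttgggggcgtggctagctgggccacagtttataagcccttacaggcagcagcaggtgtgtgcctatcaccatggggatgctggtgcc
The element stood in 15 of 27 interferon response genes with a promoter (55.6%) and in 10 of the 16 that were clone-varying (62.5%). It stood in 3.77% of all genes, 3.60% of tumour-wide and 5.85% of clone-varying genes.

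Lists of other cell types were mixed. Of 24 enteroendocrine genes 0 were tumour-wide and 8 clone-varying, the latter out of 21 with an SD of at least 0.5, which is not far from the 29.5% of all such genes. The mean of the list had an r of -0.08. *Chga*, a granin of hormone granules, had an r of 0.04, with 406 to 1857 (median 893) in major and 149.5 to 1731 (median 529) in minor clones. The hormone-cell factor *Neurod1* (r 0.02) and the granin *Scg2* (r 0.04) were also clone-varying. Of 17 genes of T and cytotoxic lymphocytes, all with an SD of at least 0.5, 0 were tumour-wide and 8 clone-varying (6 without male tumour 19), among them *Cd3e* at -0.03, *Cd7* at -0.14 and the chemokine *Ccl5* at 0.08. The mean of the list had an r of 0.30, with 0.50 in the female and 0.03 in the male mouse. In other lists, 4 of 20 macrophage, 5 of 20 endothelial, 4 of 28 fibroblast, 3 of 21 tuft and 2 of 23 Paneth cell genes were tumour-wide and 1, 0, 2, 3 and 0 clone-varying. Of all genes 9.49% were tumour-wide and 11.2% clone-varying. Without male tumour 19 the tumour-wide genes of these lists were 6, 1, 0, 0 and 3 in that order, and with the segment centred out 7, 5, 5, 2 and 0. Of all 16428 genes 903 were tumour-wide without male tumour 19, and 1281 with the segment centred out. Lymphocyte genes are low, with *Cd3e* at 10.1 to 115 (median 44.1) in major clones, and the part of counting noise was not tested.

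**Figure D4:**
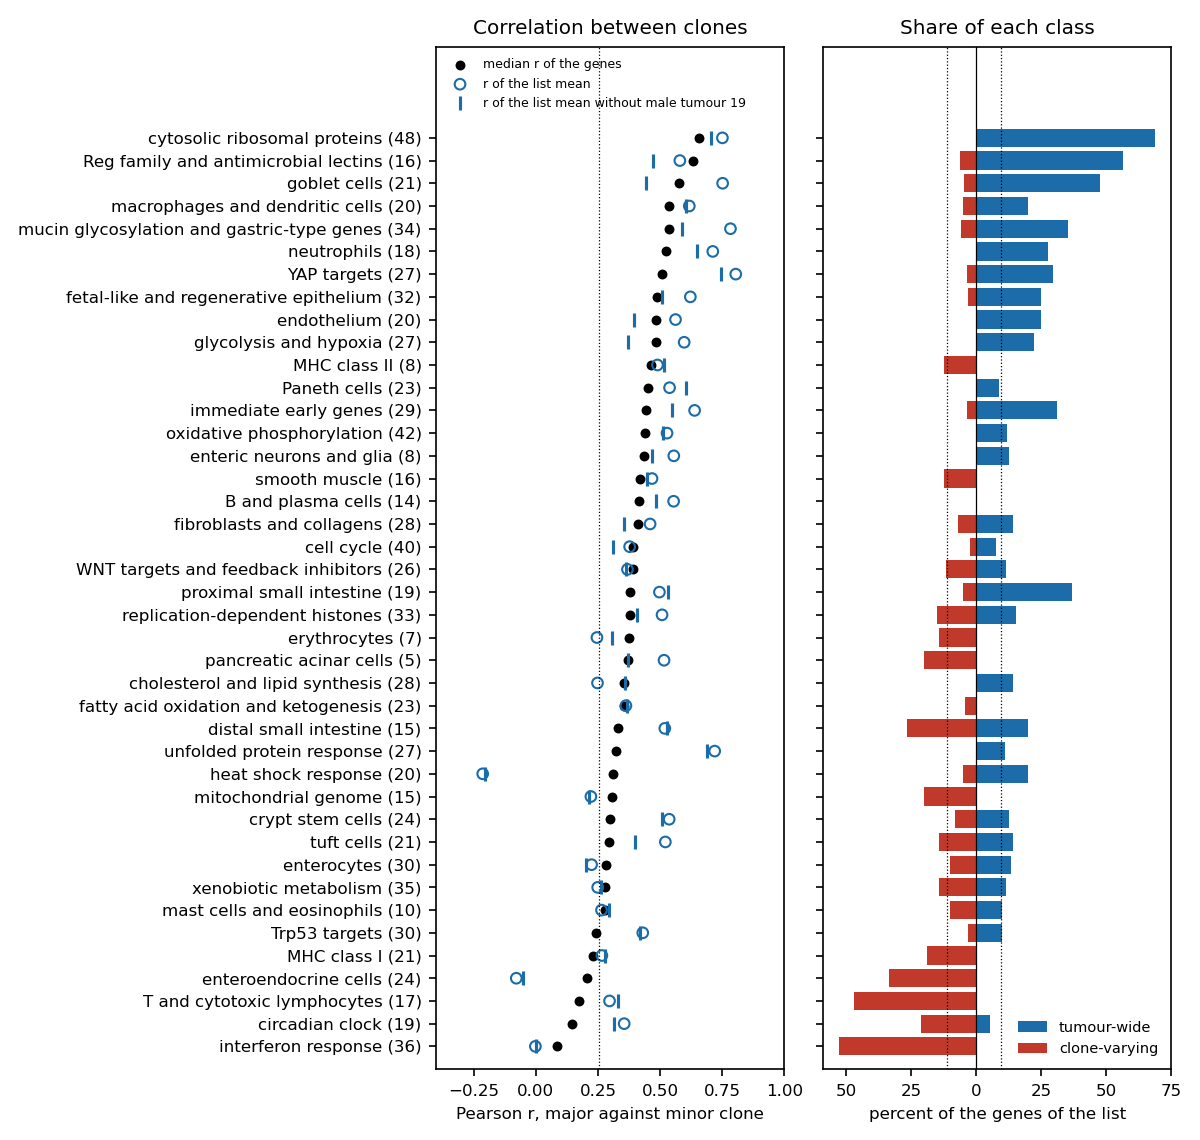
Left, for 41 gene lists (number of genes in brackets), the median r of the genes, the r of the mean of the list and the same without male tumour 19, with a dotted line at the median of all genes (0.25). Right, percent of each list that was tumour-wide (blue, to the right) and clone-varying (red, to the left), with dotted lines at 9.49 and 11.2%. Lists are ordered by median r, from ribosomal proteins (0.66) to the interferon response (0.09, with 52.8% clone-varying).

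WNT targets and feedback genes lay in both classes at shares close to those of all genes (9.49 and 11.2%). Of 26 genes 3 were tumour-wide (*Axin2*, r 0.66, *Prox1*, r 0.67, and *Sox9*, r 0.70) and 3 were clone-varying (*Notum*, r -0.14, *Nkd2*, r -0.37, and *Wif1*, r -0.17). Without male tumour 19 they were 2 and 5, where 903 and 2032 of all 16428 genes were. *Wif1*, a secreted inhibitor that binds WNT proteins, lay at 159 to 9355 (median 1896) in major and 427 to 7204 (median 2233) in minor clones. Female tumour 22 held 159 in its major and 3297 in its minor clone, whereas male tumour 29 held 9355 and 980.2. *Notum*, the secreted enzyme with which *Apc*-mutant cells disable WNT in their neighbours, lay at 1377 to 12509.9 (median 4787) in major and 2877 to 11798 (median 5398) in minor clones. In female tumour 22 it was at 1377 and 5935, and in female tumour 30 at 12509.9 and 5096. *Axin2*, the intracellular feedback target, was within 1 log2 unit in all 20 tumours, though its r was 0.89 in the female and 0.12 in the male mouse.

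Crypt stem cell genes fell into the classes at shares near the 9.49 and 11.2% of all genes. Of 24 crypt stem cell genes 3 were tumour-wide (1 with the segment centred out) and 2 clone-varying, and the mean of the list had an r of 0.54 (0.62 in the female and 0.40 in the male mouse). *Olfm4* (chr14:80221521-80260579), one of these 2, went against its list with an r of -0.43. Major clones lay at 1056 to 5801 (median 2105), minor clones at 3.64 to 3823 (median 1092) and undivided tumours at 7.91 to 3700.4 (median 1429). Minor clones of male tumours 19, 20 and 28 were at 3.64, 70.8 and 42.6, where the major clones were at 4729, 2055 and 2674. No major clone was that low. *Lgr5*, the receptor that marks the same stem cells, lay in neither class (r 0.55, with 0.73 in the female and 0.01 in the male mouse).

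*Cplane1*, a ciliary gene (chr15:8198509-8300642), was high in single clones (r -0.19). In 8 clones it was at least 4 times its median, each in a different tumour, and the partner never was. Of these, 5 were major and 3 minor clones. The highest was the major clone of male tumour 26 (2039, partner 128), then the major clone of female tumour 23 (1371, partner 104) and the minor clone of female tumour 19 (1308, partner 99.5). The lowest of the 8 was the major clone of male tumour 22 (545, partner 126). Undivided tumours ranged over 31.5 to 1429 (median 94.4), with female tumours 2, 3, 6 and 8 at 569 to 1429 and the other 19 at most at 207.

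**Figure D5:**
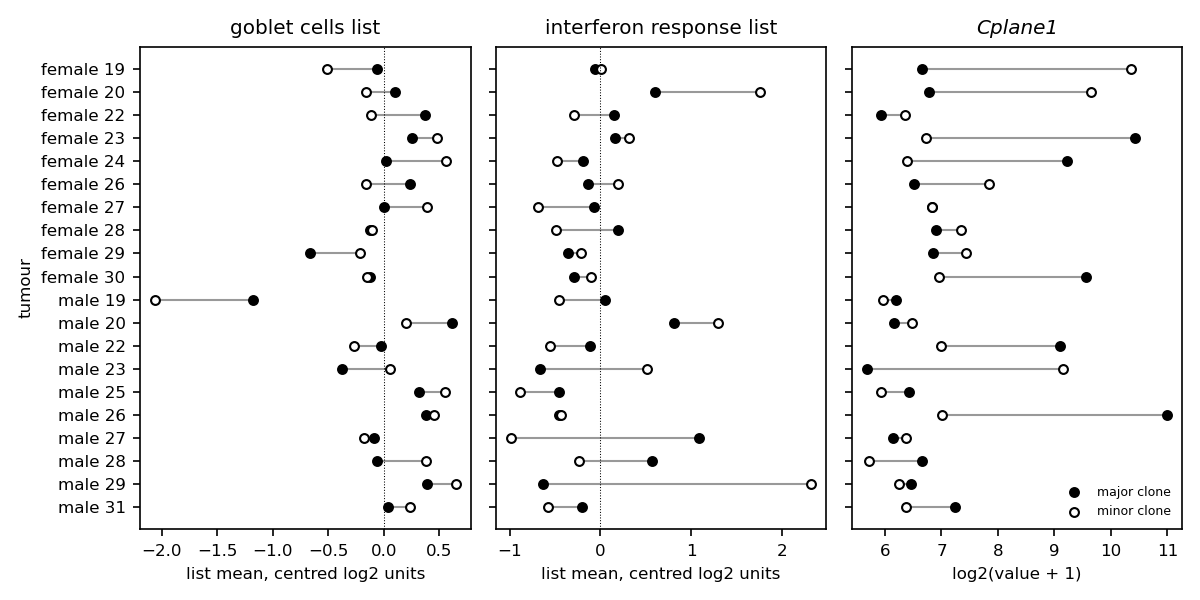
Each row is 1 tumour, with the major clone as a filled and the minor clone as an open circle. From left, the mean of the goblet cell list and of the interferon list (centred log2 units) and *Cplane1* as log2(value + 1). Centring removed the mean of each clone class and mouse, so a gap between the classes is not shown for the lists. Both clones of male tumour 19 are lowest for goblet genes, the interferon mean of male tumour 29 is high in the minor clone alone, and *Cplane1* is high in 1 clone of 8 tumours.

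Among the other clone-varying genes with the largest SD, *Igfbp2*, which binds insulin-like growth factors, lay at 197 to 2162 (median 492) in major and 121 to 6830.1 (median 1000.0) in minor clones (r -0.09). *Thbs2*, a matrix thrombospondin, lay at 9.74 to 1041 (median 100.2) and 0 to 459 (median 95.6) (r -0.17), *Nptx1*, a pentraxin, at 4.20 to 477 (median 141) and 48.8 to 239 (median 122) (r -0.08), and the zinc finger gene *Zfp991* at 11.4 to 509 (median 116) and 0 to 429 (median 118) (r 0.00). The antibody segments *Ighv1-75* (r -0.05) and *Igkv4-74* (r -0.37) were of this group. Of 123 immunoglobulin V segments, all with an SD of at least 0.5, 23 were clone-varying, a smaller share than the 29.5% of all such genes. *Rps13-ps2* and *Kansl2-ps* are pseudogenes and *Nnt* here is 1 of 2 rows of that name, so their reads can be shared with a near-identical copy and their values are uncertain. The reporters *EYFP* (r -0.19) and *mCerulean* (r -0.02), whose sequences are nearly the same, were clone-varying. *tdimer2* lay in neither class (r 0.41), and *hrGFP* was tumour-wide (r 0.62), with 7224 and 2321 in the clones of male tumour 19.

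Genes that the study itself followed fell into all 3 classes. The class means were removed before r was taken, so a tumour-wide gene can still differ between major and minor clones. The study plotted *Atoh1*, *Chga*, *Hdac2* and *Cdk4* in paired clones among genes that differ by class. In stained sections of heterotypic tumours it reported that *Lgr5*-high and *Anxa1*-high regions excluded each other and followed the Confetti clones. *Cdk4*, a kinase of G1, was tumour-wide (r 0.71), with 3731 to 11882 (median 5281) in major and 4345 to 12605 (median 6471) in minor clones, and so was *Anxa1*, a marker of regenerating epithelium (r 0.64). *Myc* (r 0.40), *Hdac2* (0.31), the Paneth cell lysozyme *Lyz1* (0.31), the secretory lineage factor *Atoh1* (0.30) and *Lgr5* lay in neither, and *Chga* and *Notum* were clone-varying. *Cdk4* without the 2 tumours farthest from the median of the major clones had an r of 0.43.

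The mice were compared in the undivided tumours by limma with segment as a covariate. Male against female, 3154 of 16511 genes were called (19.1%). Of 1540 tumour-wide genes 174 were called (11.3%), 70 higher in the male mouse, where 10.3% of all genes were, and 104 lower, where 8.82% were. Of 1750 clone-varying genes 283 were called (16.2%), 193 higher and 90 lower, and of 554 tumour-wide genes with an SD of at least 0.5, 74 (13.4%). Of 3740 other genes with that SD, 645 were called (17.2%). Among genes with a mean of at least 100 in the clones, of which 22.8% were called, it was 157 of 1348 tumour-wide (11.6%) and 179 of 491 clone-varying genes (36.5%, 133 higher and 46 lower). With that mean and an SD of at least 0.5, 60 of 373 tumour-wide (16.1%) and 386 of 1462 other genes (26.4%) were called. Direction depended on scaling: with libraries scaled to the same sum the median of all genes shifted from -0.05 to -0.25, and 961 genes were called higher and 3396 lower, with 164 and 168 among clone-varying and 33 and 317 among tumour-wide genes.

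Of the clone-varying genes, *Ifit1* was higher in the male mouse (log2 difference 1.87, SE 0.51, limma adjusted p = 0.0140), as were *Ifit3* (1.85, adjusted p = 0.0219), *Cd7* (1.64, adjusted p = 0.00175), *Ccl5* (1.59, adjusted p = 0.00447) and the disaccharidase *Sis* (1.32, adjusted p = 0.0200). *Igkv4-74* (-5.30, adjusted p = 7.67e-05) and *Ighv1-75* (-4.16, adjusted p = 0.000285) were lower. Of tumour-wide genes, *Tmprss15* was higher (2.97, adjusted p = 0.00131) and *Slc5a8* lower (-2.46, adjusted p = 0.00891). Clones were centred by mouse, so these differences did not enter r. *Ifit3* was not called without undivided female tumour 1 (adjusted p = 0.0519), and the other 8 genes named here were called whichever tumour was left out.

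Major and minor clones were compared with the tumour as a block, and since the spread of that test falls as r rises, its counts are a description. Limma called 188 of 16428 genes (1.14%), 110 higher in major clones (0.67%) and 78 lower (0.475%). Of tumour-wide genes 58 were called (40 higher, 18 lower) and of clone-varying genes 6 (5 higher, 1 lower). The balance of directions turned after quantile normalization, with 141 higher and 225 lower of all genes and 39 higher and 79 lower of tumour-wide genes. *Hpd*, of tyrosine breakdown, was higher in major clones by 0.83 log2 units (SE 0.10, adjusted p = 0.000183) and *Spink4* by 0.63 (adjusted p = 0.0238), and the clone-varying *Sis* by 1.10 (SE 0.26, adjusted p = 0.0439). *Hpd* was called whichever tumour was left out, *Spink4* was not without male tumour 20 (adjusted p = 0.0518), and *Sis* was called in 6 of the 20 fits. Of genes lower in major clones, *Mir6236* was called in all 20 fits (-1.73 to -1.46) and *Rn18s* in 11 (-1.59 to -1.34). Of 33 replication-dependent histone genes 6 were called lower and 0 higher. The part of RNA composition in these calls was not tested. The tumour-wide count of 58 was 11 to 34 without any 1 of female tumours 22, 26 and 30 and male tumours 20, 22, 23, 25, 26, 27 and 29, and 89 to 203 without female tumours 19, 23, 27 or 29.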

How the data were processed

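Poly(A) RNA of 63 libraries (40 dissected clones, 23 undivided tumours) was sequenced paired-end with a stranded kit. The authors ran FastQC 0.11.9, Trimmomatic 0.39 and Salmon 1.9.0 against Gencode M30 (GRCm39), with STAR 2.7.7a and Picard 2.27.3 for quality control, and deposited Salmon estimates scaled between libraries with DESeq2 as a signal, called normalised counts here, for 24766 genes, 678 of them without a symbol. Raw counts were not used here, so the number of reads behind each value is unknown and no counting interval is given. Library sums lay between 26140227 and 45909885.

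Values were used as log2(value + 1), keeping genes whose mean reached 10, in Python 3.11.15 (numpy 2.4.6, pandas 2.3.3, scipy 1.17.1, matplotlib 3.10.9) and R 4.3.3. The class of a clone, major or minor, came from the paper's source data and not from the sample labels. Tests were made with limma 3.58.1 (eBayes with trend, two-sided, Benjamini-Hochberg over all genes). Limma ran over undivided tumours with mouse and segment in the fit, and over clones with the tumour as a block, since both clones come from the same tumour (median r over genes 0.21, against -0.02 between tumours). With 2 mice, p-values measure the spread between tumours of these mice.

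The genes and the 41 lists were chosen with earlier results of these data known. Genes named were the 14 tumour-wide genes with the highest r (SD of at least 0.5) and the 14 clone-varying genes with the largest SD, all with a mean of at least 100 and meeting their class with each tumour left out, up to 3 genes per list and class, 3 genes on either side of each threshold, and 9 genes the study followed. Alternatives were other pseudocounts, filters, scalings, centrings, rank correlation, each mouse alone and each tumour left out. The lists without male tumour 19 and per mouse, and segment calls among genes with an SD of at least 0.5, were added after seeing the data. Promoters came from RefSeq (GRCm38.p6), of another build than the files, matched by gene and not by position.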

Additional observations from a re-analysis of the deposited data

Results flagged for a closer look

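Among 195 groups of 10 libraries (39 genes named above, by mouse and class), 23 held a library far from the other 9 by Dixon's criterion (gap over range above 0.466). Many of these genes were chosen by r or SD in the same clones, and the groups share libraries. The 23 are therefore a description, with no rate expected by chance set beside them. *Rps13-ps2* was at 0 in the major clones of female tumour 22 and male tumour 19, the minor clone of female tumour 19 and the undivided female tumour 7. *Nnt* (ENSMUSG00000116207) was at 0 in the major clone of male tumour 23 and the minor clones of female tumour 22 and male tumour 31. *Kansl2-ps* was at 0 in the major clone of male tumour 27 and the minor clones of female tumour 29 and male tumour 31, and at 26.6 in the undivided female tumour 2. *mCerulean* was lowest among female major clones in tumour 28 (186), and *hrGFP* highest among female minor clones in tumour 23 (2560.2).

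Of tumour-wide genes, male tumour 19 was lowest among male major clones for *Tnfrsf23* (265, next 826) and *Aqp5* (0, next 256). It was lowest among male minor clones for *Smpd3* (1206, next 3466). *Tmprss15* was lowest among male major clones in tumour 31 (7.35, next 145). Among female major clones *Lats2* was lowest (112) and *Cdk4* highest (9657, next 6521) in tumour 29. Of clone-varying genes, *Thbs2* was lowest among female minor clones in tumour 23 (26.6) and *Zfp991* in tumour 22 (0). *Notum* was lowest among female major clones in tumour 22 (1377, next 4188). *Cplane1* was highest among male minor clones in tumour 23 (567, next 128). No difference of the segment effect between the mice passed the test (0 of 16511 genes by limma, 870 with an unadjusted p below 0.05).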

How the results depend on the processing

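Of 343 alternative values of the counts that answer a comparison, 235 stayed within 1.5 times the value reported and 108 moved further. The number of tumour-wide genes (1559) was 1005 when clones were split by letter in place of class and 3337 in the male mouse alone (mean of at least 10 in its own clones), and 903 to 1891 with each tumour left out. The number of clone-varying genes (1846) was 6617 without a filter and 491 with a mean of at least 100, and 1759 to 2032 with each tumour left out. Segment calls in undivided tumours (28) were 18 with a pseudocount of 0.1, 0 in the female and 46 in the male mouse alone, and 5 to 53 with each tumour left out. Those among tumour-wide genes (19) were 12 with that pseudocount, 0 in the female mouse and 5 to 25 with each tumour left out, and those among clone-varying genes (0) were 2 in the male mouse and 0 to 2. Mouse calls were 350 for tumour-wide genes (174) when scaled to the same sum and 185 for clone-varying genes (283) when a mean of 100 was required, and ranged over 2307 to 3654 (all), 122 to 214 (tumour-wide) and 209 to 321 (clone-varying) with each tumour left out. The difference between major and minor clones (188 calls) gave 85 without a filter, 366 after quantile normalization, 292 scaled to the same sum, 89 without the variance trend and 0 without the tumour as replicate block. For tumour-wide genes (58) these were 25 without a filter, 118 after quantile normalization, 27 without the trend and 0 without the replicate block. For clone-varying genes (6) they were 2, 18 and 2, with 20 scaled to the same sum, 10 with that higher mean and 0 without the replicate block. With each tumour left out the paired calls were 25 to 859, 11 to 203 and 1 to 53. The cause of these moves was not tested. The r of named genes moved in 181 of 2816 alternatives and the r of list means in 29 of 287.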
